A study of Homo sapiens with 6 samples.

Results

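The polyamine enzymes and antizymes were followed in TE-1 cells, a human line from an oesophageal squamous cell carcinoma, in which EIF3C had been knocked down. Their 10 genes encode 4 enzymes of polyamine synthesis (ODC1, AMD1, SRM and SMS), 3 proteins of the antizyme system that controls the first of these enzymes (OAZ1, OAZ2 and AZIN1), and 3 enzymes of polyamine breakdown (SAT1, SMOX and PAOX). They were picked by gene symbol, and a gene was measured by the probe sets that the platform annotation gives to its symbol alone. This left 35 probe sets for the 10 genes, and all 10 were among the 13599 genes tested, out of 18132 genes with such a probe set. The brightest probe set by mean over the 6 arrays stood for its gene, and the others served as a check.

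EIF3C knockdown cells are a stable clone, and control cells are the parental TE-1 line. Each group has 3 arrays, called biological replicates in the labels, with nothing said of separate cultures. The p-values below therefore measure the spread between these arrays, which may be technical. Because the 3 knockdown samples share 1 clone, and no control construct is described, an effect of the knockdown cannot be told apart from other differences between this clone and its parental line. Values are log2 signals, so a difference of 1 is a 2-fold change. A change shared by all transcripts would not be seen, because the arrays appear to have been scaled to each other.

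Array medians lay between 6.09 and 6.11, and arrays correlated across probe sets at 0.9977 to 0.9985 within groups and at 0.9824 to 0.9846 between groups. On its brightest probe set, shared with the near-copy EIF3CL, the target EIF3C stood at 8.42, 8.41 and 8.49 in knockdown and at 10.69, 10.60 and 10.56 in control. That left 22.1% of the control signal (limma, adjusted p = 6.58e-15). Other bright probe sets of EIF3C left 22.6% and 21.5%. Dim ones, with control means of 4.53 and 4.39, left 51.1% and 66.9%. The epithelial genes EPCAM, CDH1, KRT8, KRT18 and DSP were bright, from 10.46 to 13.64 in knockdown and from 10.86 to 13.52 in control. The basal squamous keratins KRT5 and KRT14 lay at 6.09 and 5.67 in knockdown and at 5.91 and 5.85 in control, below the median of all human probe set values, 6.10, so these defining markers of squamous basal cells were weak in both groups. Of markers of other cell types, all 4 of leukocytes lay below that median in both groups, as did 4 of 5 of fibroblasts, with PDGFRB at 6.34 in knockdown and 6.21 in control. Of 4 endothelial markers CDH5 lay above it in knockdown, at 6.31, against 5.84 in control. Non-human control probe sets, which should not differ, did so by -0.22 to 0.20, and this range is the yardstick for small changes below. It runs between the extremes of all 85 such probe sets and is not matched for brightness, so it is a wide yardstick. The 9 hybridisation controls among them ran only from -0.11 to 0.05.

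Polyamines are small, positively charged molecules that bind nucleic acids and are needed for translation and growth. Ornithine decarboxylase makes putrescine from ornithine, and aminopropyl groups from decarboxylated S-adenosylmethionine are then added to give spermidine and spermine. Antizymes bind ornithine decarboxylase, send it to the proteasome without ubiquitin and slow polyamine uptake, while the antizyme inhibitor, an inactive relative of the enzyme, ties antizyme up. Antizyme itself is made through a ribosomal frameshift that polyamines promote, so transcript levels are only one layer of this control. In breakdown, acetylated or free polyamines are oxidised back towards putrescine.

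The transcripts for making spermidine were higher in knockdown cells, and the step to spermine was not. ODC1, AMD1 and SRM rose, by 2.09-fold, 1.38-fold and 1.78-fold, while the interval for SMS lay close to no change. In the antizyme system OAZ1 fell and OAZ2 rose, as did AZIN1 on 1 of its 2 probe sets, and in breakdown SAT1 rose with no call for SMOX or PAOX. In all, 7 of 10 genes passed an adjusted p of 0.05 in limma, against 66.5% of all genes tested, so the share called was near the background. The count by direction was 6 higher and 1 lower, where 32.4% of all genes were called higher and 34.1% lower. The median difference was 0.30 over the 10 genes and -0.03 over all genes tested, and the median absolute difference was 0.30 and 0.23. For 7 of the 10 the groups did not overlap, against 70.3% of all genes. These counts and medians take AZIN1 at the rise of 1 probe set. That probe set was the brighter of its 2 only through its knockdown values, and on the other AZIN1 was not called.

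**Figure D1:**
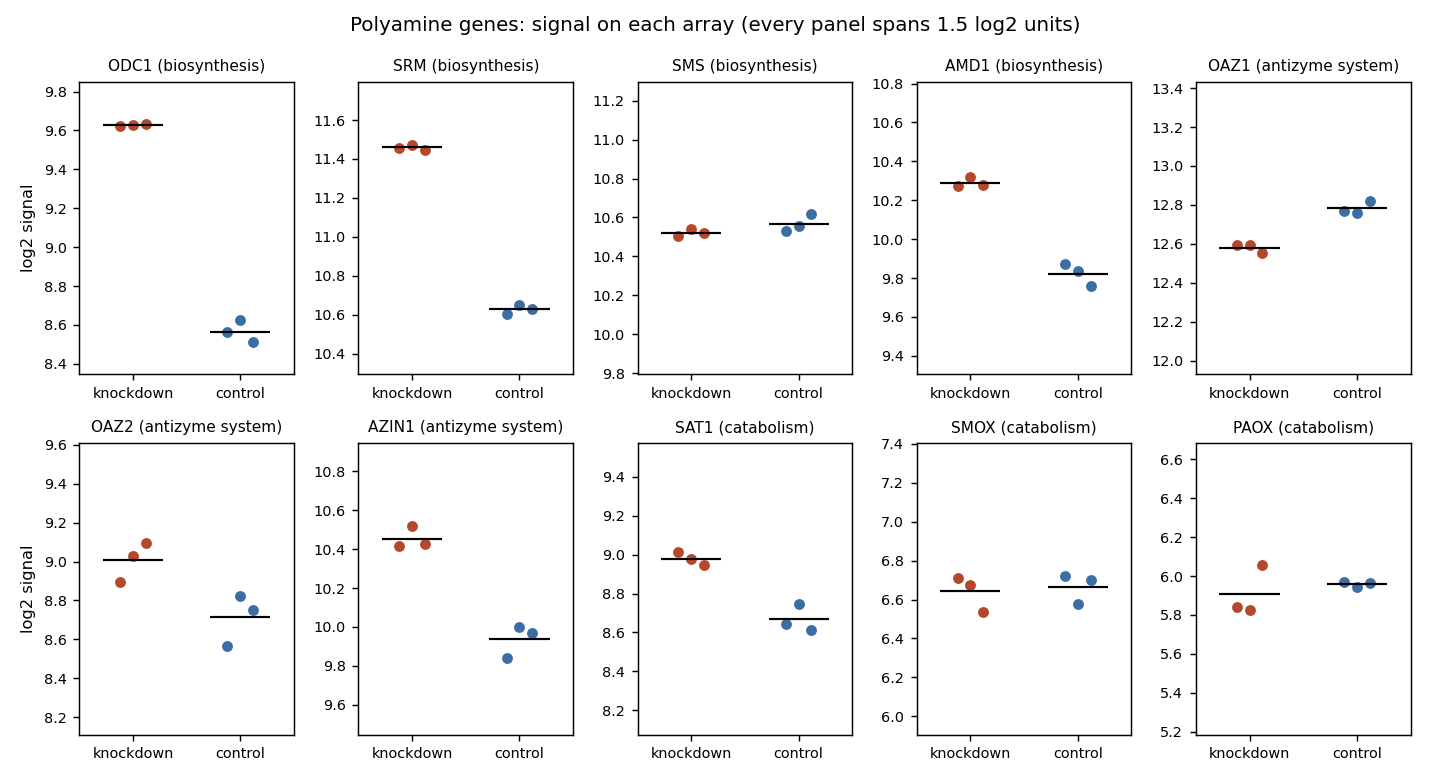
Log2 signal of each polyamine gene on each array (points), with knockdown left of control and the group mean as a bar; every panel spans the same height. The 3 knockdown points of ODC1, SRM, AMD1, OAZ2, AZIN1 and SAT1 lie above all control points, those of OAZ1 lie below, and SMS, SMOX and PAOX overlap.

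ODC1 encodes ornithine decarboxylase, the first and rate-limiting enzyme of the pathway. Its log2 signals were 9.62, 9.63 and 9.63 in knockdown and 8.56, 8.63 and 8.51 in control. The knockdown arrays were nearly identical, and each stood a full log2 unit or close to it above every control array. The difference was 1.06 (SE 0.04, 95% confidence interval 0.98 to 1.14, adjusted p = 1.43e-13), which ranked 293 among the rises of 13599 genes. It was the only one of the 10 genes called with a change of at least 2-fold, and 2.6% of all genes tested were called higher by that much. ODC1 is measured by 1 probe set here, so no second probe set checks its size.

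SRM encodes spermidine synthase, which adds the aminopropyl group to putrescine. It stood at 11.46, 11.47 and 11.45 in knockdown and at 10.60, 10.65 and 10.63 in control, again with a gap between the groups many times the spread within them. The difference was 0.83 (SE 0.02, interval 0.78 to 0.88, adjusted p = 1.23e-14). Its second probe set gave a larger rise, 0.99, with means of 10.89 ± 0.03 in knockdown and 9.90 ± 0.05 in control (SD, n = 3 each).

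AMD1 encodes S-adenosylmethionine decarboxylase, which supplies the aminopropyl donor for both synthases. Its signals were 10.27, 10.32 and 10.28 in knockdown and 9.87, 9.84 and 9.76 in control. The difference was 0.47 (SE 0.03, interval 0.40 to 0.53, adjusted p = 1.11e-09). All 6 of its probe sets were called higher, in a fit over all human probe sets in which 48.2% were called, and their differences ran from 0.47 to 0.66. A further probe set shared with the pseudogene AMD1P3 was not used for the gene; it was higher too, by 0.45.

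SMS encodes spermine synthase, which carries spermidine on to spermine. It stood at 10.51, 10.54 and 10.52 in knockdown and at 10.53, 10.55 and 10.62 in control, and the groups overlapped. The difference was -0.05 (SE 0.03, interval -0.11 to 0.01, adjusted p = 0.146), an interval that leaves no room for a rise of the size seen for the other 3 synthesis genes. Its second bright probe set gave -0.08, and a dim one, at 3.26 in knockdown and 3.18 in control, gave 0.09; none of the 3 was called. With quantile normalization SMS was called lower, at -0.09 (adjusted p = 0.0106), a size inside the range of the non-human controls.

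The E-box, the letters CACGTG, is the site that the MYC and MAX transcription factor pair binds, and ODC1 is a long-known MYC target. Its letters were searched in RefSeq promoter windows of GRCh38.p14, from 250 bases before to 50 bases after an annotated start; the motif reads the same on both strands. Windows were at hand for 7 of the 10 genes, and AZIN1, SMOX and PAOX, which have none, were not searched. The motif was found for ODC1 and SRM, which had the largest rises. It occurs in 7.26% of all 35116 windows and for 8.77% of the 27305 genes that have one. ODC1 has 2 windows, and the one from its more downstream start holds the motif 2 times, with first bases at -29 and 6, counted from that start. SRM holds it once, with its first base at -199. Stretches are given for the genes whose windows hold the motif, with the motif in capitals. They are the stretches around the motifs of ODC1, on the minus strand at chr2:10448024-10448053 and chr2:10447990-10448019, and the upstream 250 bases of SRM, on the minus strand at chr1:11060019-11060268:
ODC1, upstream motif: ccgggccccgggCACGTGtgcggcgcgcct
ODC1, downstream motif: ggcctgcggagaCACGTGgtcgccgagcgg
SRM: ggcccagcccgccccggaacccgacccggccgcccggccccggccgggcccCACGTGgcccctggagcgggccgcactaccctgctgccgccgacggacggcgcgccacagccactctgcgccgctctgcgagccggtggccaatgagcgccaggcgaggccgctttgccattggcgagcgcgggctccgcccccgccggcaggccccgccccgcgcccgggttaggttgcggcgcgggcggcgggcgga
The 3 windows of AMD1, whose transcript also rose, do not hold these letters, and neither do those of SMS, OAZ1, OAZ2 and SAT1. A match is a stretch of letters and no measurement of binding.

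MYC itself was higher in knockdown cells, at 9.83, 9.88 and 9.81 against 8.83, 8.85 and 8.78 in control (difference 1.02, SE 0.03, adjusted p = 1.19e-13). MYC is measured by 1 probe set here, so no second one checks its size. Its partner MAX stood at 9.13, 9.13 and 9.13 in knockdown and at 8.58, 8.62 and 8.53 in control (difference 0.55, adjusted p = 5.25e-10). Of 12 probe sets of MAX, 9 were called higher and 0 lower, with differences from -0.19 to 0.82. Whether the changes of MYC and MAX and those of ODC1 and SRM are linked was not tested.

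OAZ1 encodes the main antizyme and was the single gene of the 10 called lower. Its signals were 12.59, 12.59 and 12.55 in knockdown and 12.77, 12.76 and 12.82 in control. The groups did not overlap, but the gap was small: the difference was -0.20 (SE 0.02, interval -0.25 to -0.16, adjusted p = 1.17e-07), a 1.15-fold decrease. All 6 of its probe sets were called lower, from -0.35 to -0.19, and 4 of the 6 lay beyond the range of the non-human controls, while the one that stands for the gene lay just inside it. These probe sets share their target transcript and are not independent.

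OAZ2, a second antizyme, went the other way. It stood at 8.89, 9.03 and 9.09 in knockdown and at 8.57, 8.82 and 8.75 in control. The lowest knockdown array was only just above the highest control array. The difference was 0.29 (SE 0.06, interval 0.17 to 0.42, adjusted p = 0.000313), and its second probe set gave 0.47 and was called higher too.

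AZIN1, the antizyme inhibitor, gave 2 answers. On the probe set that stands for it, the gene stood at 10.42, 10.52 and 10.43 in knockdown and at 9.84, 10.00 and 9.97 in control, a difference of 0.52 (SE 0.04, interval 0.43 to 0.60, adjusted p = 3.04e-09). On the other the means were 9.95 ± 0.01 in knockdown and 9.99 ± 0.03 in control (SD, n = 3 each), and the difference of -0.04 was not called (adjusted p = 0.28). Subtracting the second from the first within each array gave 0.47, 0.56 and 0.48 in knockdown and -0.17, 0.01 and 0.01 in control. In control the second probe set was the brighter one on average, so the first was taken through its knockdown values, and by control means alone AZIN1 would have been read as not called. With the mean of both probe sets the rise was 0.24 and was still called. The probe sets were designed on different transcript records, and where each lies on the gene is not given in the sources used here, so the rise is that of 1 of 2 probe sets.

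**Figure D2:**
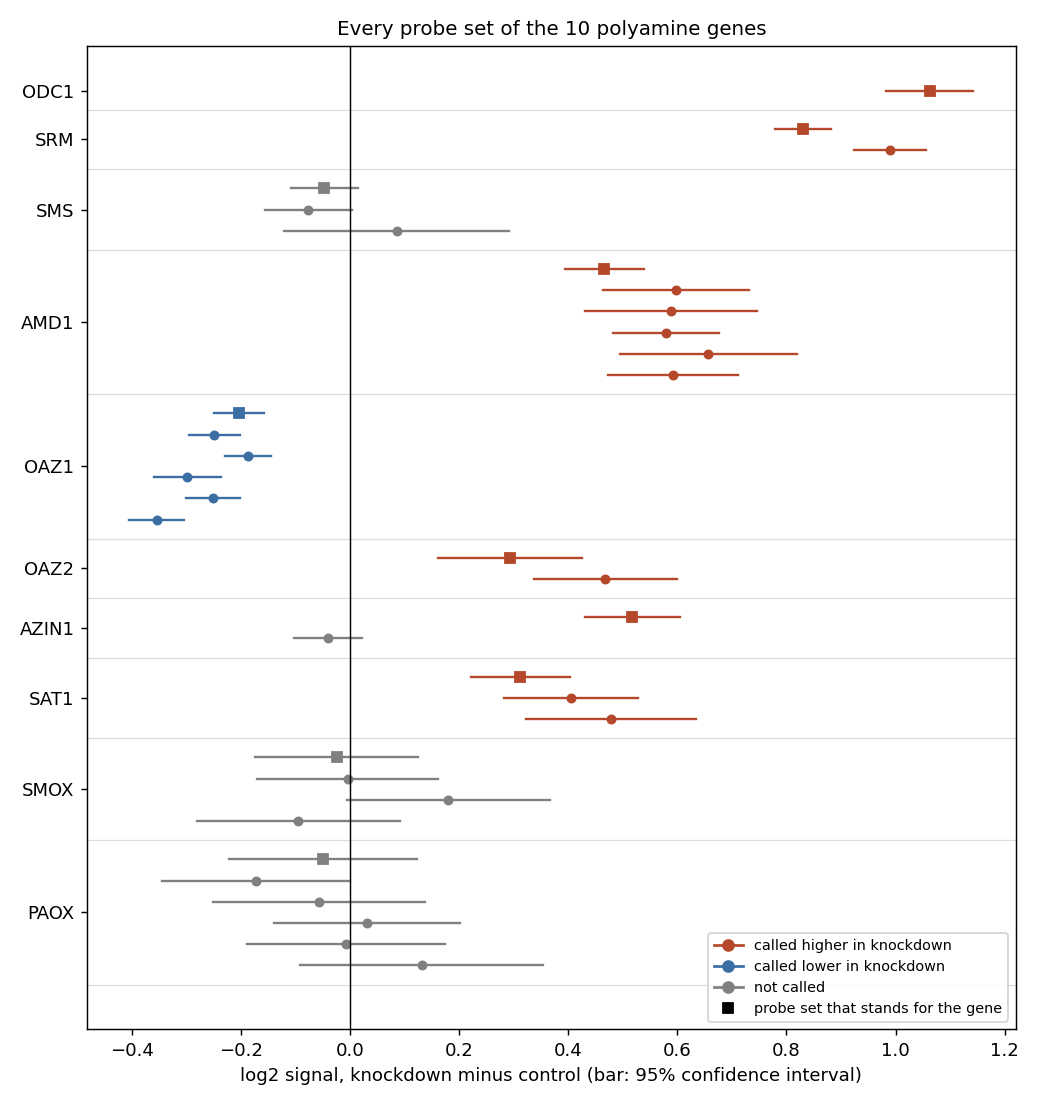
Log2 difference, knockdown minus control, of each of the 35 probe sets of the 10 genes, with 95% confidence intervals from the fit over all human probe sets; squares stand for the gene, and colour gives the call. The probe sets of ODC1, SRM, AMD1, OAZ2 and SAT1 all lie above 0 and the 6 of OAZ1 below, and AZIN1 has one at 0.52 and one at -0.04.

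SAT1 encodes spermidine/spermine N-acetyltransferase, which marks polyamines for export or oxidation and is itself induced by polyamines. It stood at 9.01, 8.98 and 8.95 in knockdown and at 8.64, 8.75 and 8.61 in control. Every knockdown array was above every control array, and the difference was 0.31 (SE 0.04, interval 0.22 to 0.40, adjusted p = 3.5e-06). All 3 of its probe sets were called higher, at 0.31, 0.40 and 0.48.

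The 2 oxidases showed no call on any of their probe sets. SMOX, spermine oxidase, turns spermine back into spermidine. It stood at 6.71, 6.68 and 6.54 in knockdown and at 6.72, 6.58 and 6.70 in control, with overlapping groups and a difference of -0.02 (SE 0.07, interval -0.17 to 0.12, adjusted p = 0.769). Its 4 probe sets gave -0.09 to 0.18. PAOX oxidises acetylated polyamines in peroxisomes. It stood at 5.84, 5.83 and 6.06 in knockdown and at 5.97, 5.94 and 5.96 in control, with a difference of -0.05 (SE 0.08, interval -0.21 to 0.12, adjusted p = 0.598). Its 6 probe sets gave -0.17 to 0.13. All PAOX group means lay below the median of all human values, 6.10. Detection calls were not used here, so these levels cannot be called present or absent, and a dim probe set can miss a change.

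**Figure D3:**
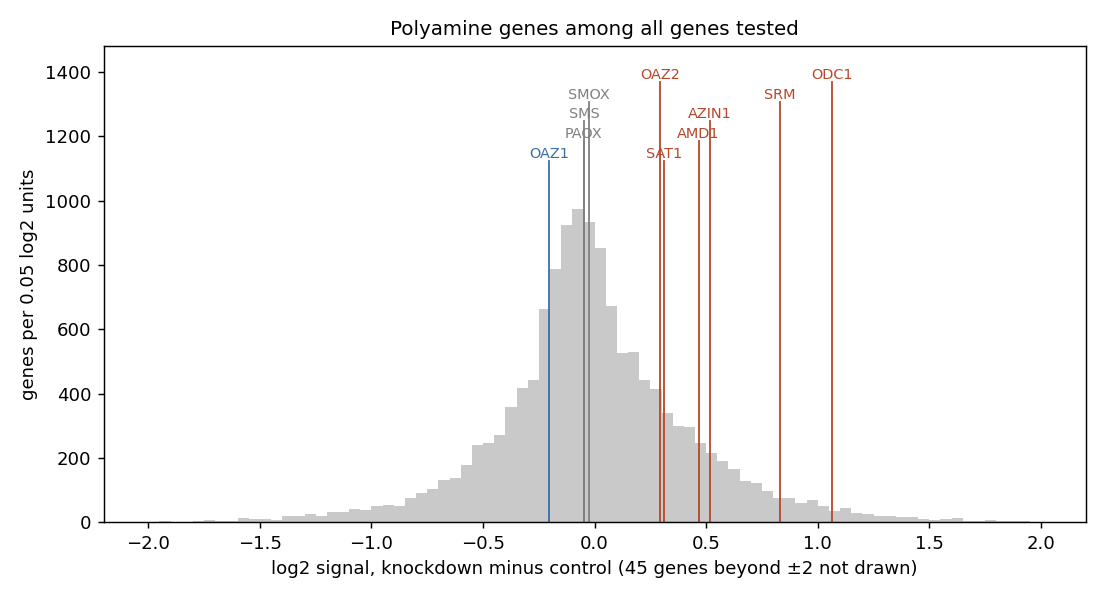
Number of genes per 0.05 log2 units of difference, knockdown minus control, for the 13599 genes tested (grey), with the 10 polyamine genes as labelled lines; 45 genes beyond the drawn range are left out. ODC1 at 1.06 and SRM at 0.83 lie in the upper tail, and SMS, SMOX and PAOX lie near the centre.

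Around these 10 genes, a list of 44 genes that feed, use, move or regulate polyamines was counted in the same fit. Of these, 37 were tested, and 28 of the 37 were called, 18 higher and 10 lower, a share of 75.7% against 66.5% of all genes. For 11 of the 28 the difference lay inside the range of the non-human controls. The counts by role below include these 11. Of all genes tested, 32.4% were called higher and 34.1% lower. Their median difference was 0.09 and their median absolute difference 0.19, against 0.23 for all genes tested. ARG1, OTC, ATP13A4, SATL1 and LIN28B were too dim for the test, and 2 further genes of the list were not analysed here.

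Of ornithine supply and use, 4 of 7 tested genes rose and 2 fell. ARG2, the mitochondrial arginase that releases ornithine from arginine, had the largest change of the list. It stood at 6.59, 6.67 and 6.58 in knockdown and at 5.57, 5.57 and 5.52 in control, a difference of 1.06 (SE 0.07, adjusted p = 4.19e-10), and both its probe sets were called higher. Its control signals were dim, below the median of all human values, 6.10. ALDH18A1, which makes a precursor of proline and ornithine from glutamate, rose by 0.23, and ASS1, an enzyme of arginine synthesis, fell by 0.27. Among genes that make S-adenosylmethionine or salvage the methylthioadenosine left by the synthases, 3 of 9 rose and 3 fell. ENOPH1, an enzyme of that salvage route, rose by 0.53 (adjusted p = 4.83e-11). MRI1, an earlier enzyme of the same route, fell by 0.33 and MAT1A, the liver form of S-adenosylmethionine synthetase, by 0.36. For MAT1A 1 of 2 probe sets was called, and for MRI1 2 of 3. MAT1A was dim, at 5.42 in knockdown and 5.78 in control, below the median of all human values, 6.10. With probe sets ending in _x_at, a name that marks possible cross-matching, set aside, MRI1 was not called (adjusted p = 0.202).

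The hypusine pathway uses spermidine to modify eIF5A, a translation factor. All 4 of its genes were called, 3 higher and 1 lower, where 66.5% of all genes tested were called. The smallest of these rises, 0.18, lay inside the range of the non-human controls. EIF5A2, the second gene for that factor, stood at 6.97, 6.99 and 6.84 in knockdown and at 6.37, 6.35 and 6.26 in control (difference 0.61, SE 0.07, adjusted p = 2.65e-07), but 2 of its 4 probe sets were not called and the range was 0.02 to 1.28. DHPS, which transfers part of spermidine onto the factor, fell by 0.31 on the probe set that stands for it, and all 5 of its probe sets were called lower. DOHH, which completes the modification, rose by 0.36, with 1 of 2 probe sets called.

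Of 8 tested genes linked to polyamine transport, 3 rose and 4 fell. GPC1, a heparan sulphate proteoglycan linked to polyamine uptake, stood at 9.32, 9.23 and 9.22 in knockdown and at 10.07, 9.87 and 9.88 in control (difference -0.68, SE 0.05, adjusted p = 1.1e-09). Its second probe set was called lower too, with a smaller difference of -0.28. SLC18B1, a vesicular polyamine transporter, fell by 0.54, with 2 of 3 probe sets called. SLC3A2, the heavy chain of amino acid exchangers that has been tied to polyamine export, rose by 0.24, and all 7 of its probe sets were called higher. Among paralogues and other catabolic enzymes 1 of 4 was called: SAT2, a relative of SAT1, rose by 0.33 (adjusted p = 1.05e-07). Of 5 tested regulators 4 rose, where 32.4% of all genes tested were called higher. Besides MYC and MAX the mRNA-destabilising factor ZFP36 rose by 0.16, inside the range of the non-human controls. The remaining rise, 0.12, lay inside that range too.

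**Figure D4:**
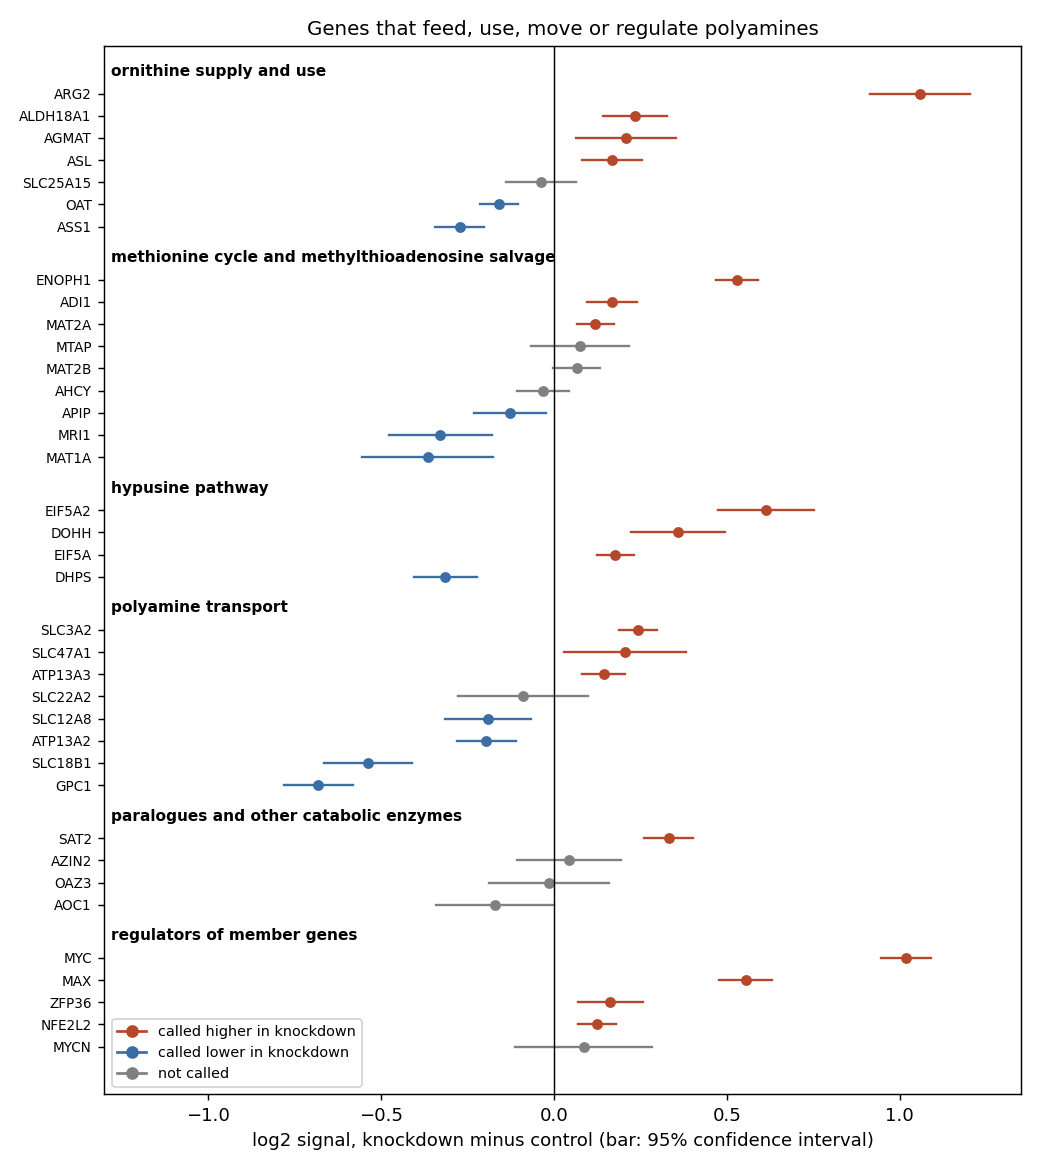
Log2 difference, knockdown minus control, with 95% confidence intervals for the 37 tested genes of the wider polyamine list, grouped by role and coloured by call. ARG2 at 1.06 and MYC at 1.02 lie farthest to the right, and GPC1 at -0.68 farthest to the left.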

How the data were processed

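RNA of 6 TE-1 samples was measured on an Affymetrix array. The authors deposited log2 signals, 1 column per array for 49395 probe sets; MAS5 is named in the submitters' processing notes, with no version, and nothing further is recorded on how the signals were made. Their range points to a log2 scale. Arrays were used without further normalization. Of 49293 human probe sets, 44988 had 1 gene symbol in the platform annotation, of which 44961 matched a RefSeq gene table (GRCh38.p14) by Entrez ID, with 0 symbols changed.

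Each gene took its probe set with the highest mean over the 6 arrays, and the lowest 25% of 18132 genes (means under 4.635) were left out. Knockdown was set against control with limma 3.58.1 in R 4.3.3 (lmFit, eBayes with intensity trend, group as the only term, Benjamini-Hochberg over the 13599 genes tested). Probe sets were compared in a second fit over all human probe sets. On simulated data with the spread of these 13599 genes, the knockdown-against-control test recovered 52.5% of changes of 0.25, 90% of 0.5 and 99.4% of 1 on the log2 scale. Only a small part of the genes was changed in each simulated draw, whereas 66.5% of genes were called in the data. The cut-off for a call therefore differed, and these shares do not give the recovery in the real fit.

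The genes and lists were chosen with earlier results of these data known. Named genes of the wider list were the up to 3 with the largest change among those called in each role, or the one with the smallest adjusted p where none was called. Alternatives are given in the closing section. The number of arrays limits the precision.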

Additional observations from a re-analysis of the deposited data

How the results depend on the processing

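Each count, and each difference of the named polyamine genes, was recomputed under 16 alternatives: no filter, a 50% filter, median centring, quantile normalization, averaging all probe sets of a gene, robust eBayes, eBayes with no intensity trend, a replicate block, array weights, each array left out in turn, and, chosen after seeing the data, no probe set ending in _x_at where a gene has another. The 7 called genes of the 10 kept their direction and call in all 112 such values, with adjusted p at most 0.0121. Reading AZIN1 on its second probe set alone, where it was not called, was not among these settings. The count called lower moved from 1 to 2 with quantile normalization, through SMS. The number of genes called ran from 7284 with the 50% filter to 9352 of 18132 genes with no filter. The filter sets how many genes are tested, so the share of all genes called moves with it, and 66.5% holds for the main filter. The number called of the wider list ran from 24 to 30. Of 253 values for named genes of the wider list, 251 kept their direction and call; ZFP36 was not called with quantile normalization (adjusted p = 0.0658), nor MRI1 without _x_at probe sets (0.202). EIF3C, read on its brightest probe set, was recomputed in 8 settings: a replicate block, quantile normalization and each array left out. Its difference lay between -2.22 and -2.14.

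Signs changed only where no call was made or on a second probe set. SMOX gave 0.014 with the mean of its probe sets, 0.0041 with array weights, 0.18 on a second probe set, and -0.070 to 0.027 with 1 array left out. PAOX gave 0.030 and 0.13 on other probe sets, SMS 0.085 on its dim one and AZIN1 -0.041 on its second. The 50% filter removed SMOX, PAOX, ARG2, MAT1A and EIF5A2, which have no value there.

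With the replicate block, 7 of the 10 genes were called, as without it, and 9307 genes overall. Same-numbered arrays correlated in their deviations from group means at 0.0765, 0.129 and 0.227. Differently numbered arrays were not compared, so these values cannot settle whether the numbers pair the samples. The labels state no pairing, and the main fit has none.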
